A study of Homo sapiens with 5 samples.

Results

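The genes described here build the peptide display of the cell surface, the MHC class I molecules and the machinery that loads them. They were taken as the rows of the deposited count table whose symbols are HLA-B, HLA-C, HLA-E, HLA-F, B2M, TAP1, TAP2, TAPBP and ERAP1, which gave 9 of 26485 genes. All 9 passed the filter on low counts, which kept 14187 genes. The counts came from RNA-seq of RPE1, an established human cell line derived from retinal pigment epithelium and labelled as wild type. Of 5 libraries, 2 were of cells given DMSO, the solvent of the drug (0 μM), 2 of cells given 0.2 μM doxorubicin and 1 of cells given 0.34 μM doxorubicin, each for 18 h. All libraries are of 1 cell line in culture. The treatment labels give the doses in μM as above, while a protocol note gives far larger numbers in the same unit, and the treatment labels were followed. Doxorubicin intercalates into DNA and traps topoisomerase 2 on it, and the study asked how treated cells differed from DMSO cells.

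Class I molecules show short peptides from the cell's own proteins to CD8 T cells and natural killer cells. The proteasome cuts proteins into peptides, the TAP1 and TAP2 proteins together pump them into the endoplasmic reticulum, ERAP1 trims their ends, and tapasin, the product of TAPBP, holds an empty class I molecule next to the pump until a peptide fits. A class I molecule is a heavy chain, such as HLA-B, HLA-C, HLA-E or HLA-F, bound to the light chain B2M. HLA-B and HLA-C are the classical, highly variable chains. HLA-E shows mostly leader peptides of other class I chains to the NKG2A receptor of natural killer cells, and HLA-F is a non-classical chain of low abundance. In most cells interferons raise many of these genes together, through STAT2, interferon regulatory factors (IRF) and the coactivator NLRC5.

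On GRCh38, 7 of the 9 genes lie on chromosome 6, in or near the MHC. HLA-B runs from 31353875 to 31357179, HLA-C from 31268749 to 31272092, TAP2 from 32821831 to 32838739 and TAP1 from 32845209 to 32853704, all on the minus strand. B2M lies apart, on chromosome 15 from 44711517 to 44718145, and ERAP1 on chromosome 5 from 96760813 to 96935854. The annotated start of TAP1 is 488 bases from that of PSMB9, an immunoproteasome subunit on the opposite strand. RefSeq promoter windows of 300 bases (250 before to 50 after the start) were at hand for 8 of the 9 genes, not for HLA-E. The 250 bases before the start are shown for both TAP genes, which had different values after doxorubicin. Those of HLA-B and HLA-C, heavy chains that each pair with B2M, and of B2M itself are also shown. The bases shown are reference sequence, not that of RPE1 cells, and run 5′ to 3′ on the strand of the gene. Capitals mark matches on either strand to the core that IRF proteins bind (AANNGAAA) and to the NF-kB consensus.
TAP1, chr6:32853705-32853954, minus strand: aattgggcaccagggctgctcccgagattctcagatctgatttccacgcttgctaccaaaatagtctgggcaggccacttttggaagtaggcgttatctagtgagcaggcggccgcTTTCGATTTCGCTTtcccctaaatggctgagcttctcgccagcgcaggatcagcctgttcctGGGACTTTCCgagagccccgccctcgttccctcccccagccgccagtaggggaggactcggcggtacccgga
TAP2, chr6:32838740-32838989, minus strand: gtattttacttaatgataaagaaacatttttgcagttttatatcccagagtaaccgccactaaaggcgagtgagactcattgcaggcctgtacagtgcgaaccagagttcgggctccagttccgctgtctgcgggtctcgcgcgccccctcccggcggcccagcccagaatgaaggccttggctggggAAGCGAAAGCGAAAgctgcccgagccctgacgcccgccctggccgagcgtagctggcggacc
HLA-B, chr6:31357180-31357429, minus strand: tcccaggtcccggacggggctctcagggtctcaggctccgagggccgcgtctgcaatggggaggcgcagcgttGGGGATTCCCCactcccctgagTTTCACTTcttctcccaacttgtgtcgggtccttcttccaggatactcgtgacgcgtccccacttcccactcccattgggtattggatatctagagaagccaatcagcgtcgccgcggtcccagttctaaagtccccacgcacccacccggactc
HLA-C, chr6:31272093-31272342, minus strand: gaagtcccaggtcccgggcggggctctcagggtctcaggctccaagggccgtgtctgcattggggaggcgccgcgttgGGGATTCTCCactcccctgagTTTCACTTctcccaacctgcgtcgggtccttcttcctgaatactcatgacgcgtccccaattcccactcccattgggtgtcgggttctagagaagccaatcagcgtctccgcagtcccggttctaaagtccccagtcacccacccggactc
B2M, chr15:44711267-44711516, plus strand: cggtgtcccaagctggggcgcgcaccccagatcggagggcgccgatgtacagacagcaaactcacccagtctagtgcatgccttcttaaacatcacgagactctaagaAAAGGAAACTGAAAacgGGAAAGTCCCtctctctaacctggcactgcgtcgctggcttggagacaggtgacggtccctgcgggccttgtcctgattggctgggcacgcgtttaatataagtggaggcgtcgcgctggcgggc

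The IRF core was found in 9 of 10 windows of the 8 genes, which include a second start each for TAP1 and ERAP1, and in 22.8% of 35116 RefSeq promoter windows of the same length. The one window without it was that of the second TAP1 start. In TAP1, TAP2, B2M, TAPBP and at the second ERAP1 start it occurred as 2 overlapping matches, from position -134 in TAP1 and from position -62 in TAP2, where position -1 is the base before the start. HLA-B and HLA-C held a single match at -155 and -151, each next to an NF-kB match. The NF-kB consensus was found in 6 of 10 windows, from 6 of the 8 genes, and in 5.91% of all windows. It was not found in those of TAP2 and HLA-F. In HLA-B its overlapping matches on both strands form 1 site. TGACG, part of the X2 box of class I promoters, was in 4 of 10 windows (24.6% of all windows), those of HLA-B, HLA-C, B2M and TAP2. CCAAT was in 6 of 10 windows, from 6 genes (34.6% of all windows). The letters searched for were chosen with these windows in view, and a match describes the sequence without showing that a factor binds there.

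**Figure D1:**
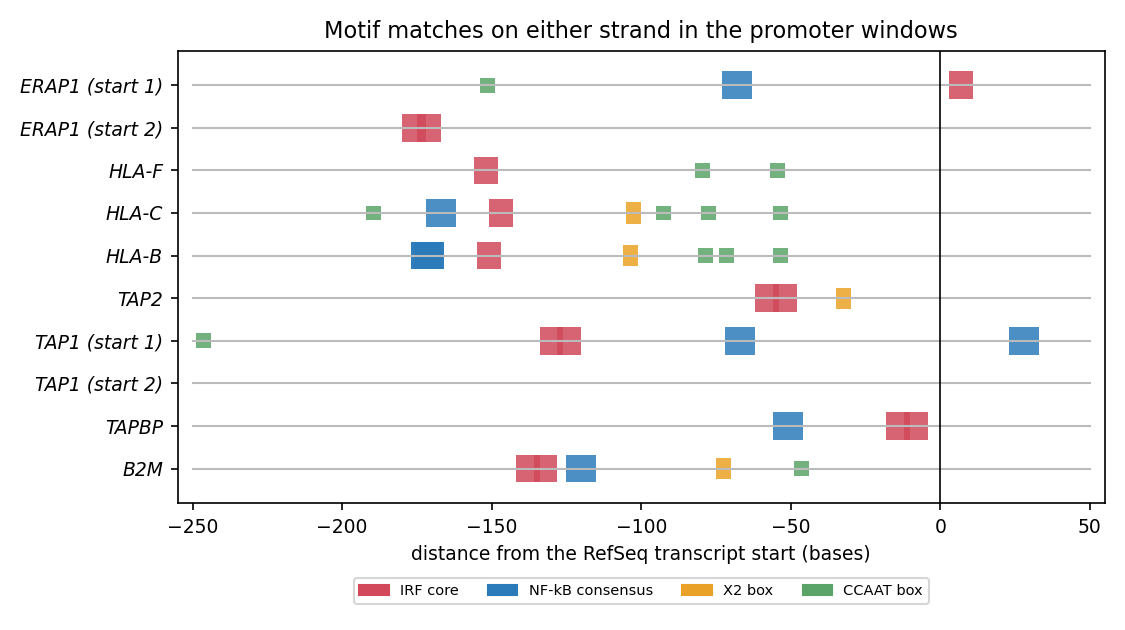
Motif matches in the RefSeq promoter windows of 8 of the genes, by distance from the annotated transcript start in bases (x axis), with 1 line per start and 1 coloured box per match on either strand. Red boxes (IRF core) stand on 9 of 10 lines, and blue boxes (NF-kB consensus) on 6.

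The libraries held between 23773061 and 36725345 counts on genes, and TMM factors were between 0.975 and 1.04. Levels are given as TMM-normalized CPM (counts scaled to a common library size). Retinal pigment epithelium markers were uneven: MITF had 743 to 1503 counts per library and OTX2 601 to 887, while RPE65 had at most 8, RLBP1 at most 3 and TYR at most 5. The pigment cell gene PMEL had 7 and 5 counts with DMSO against 22, 32 and 46 with the drug. BEST1 had 26 and 14, then 86, 30 and 142. Both were low, and higher in every doxorubicin library, with log2 fold changes of 2.29 (edgeR adjusted p = 0.0264) and 1.88 (edgeR adjusted p = 0.0823). SERPINF1 (11 and 29 counts, then 4, 15 and 13), MITF and OTX2 overlapped between the groups. Their log2 fold changes were -1.04, 0.05 and -0.02. The median of the 5 genes of this list that were tested was 0.05. The epithelial keratins KRT8 and KRT18 and the mesenchymal genes VIM and FN1 were abundant, and CDH1 had at most 4 counts. KRT8 was higher in every doxorubicin library, with a log2 fold change of 0.87 (edgeR adjusted p = 0.0133, DESeq2 adjusted p = 5.1e-09). KRT18 was also higher in every one (0.63, edgeR adjusted p = 0.136). The epithelial junction gene TJP1 went the other way and was lower in every one (-0.62, edgeR adjusted p = 0.114). Of the leukocyte markers, CD3E was at 0 in every library and CD14 had at most 2 counts. PTPRC had 5 and 7 counts in the DMSO libraries against 25, 53 and 72 counts with the drug, a log2 fold change of 2.86 (edgeR adjusted p = 0.0212) that DESeq2 called, and LYZ had 0 and 0 against 4, 4 and 15. The summed level of the leukocyte list was 0.191 and 0.313 CPM in DMSO and 1.24, 2.37 and 2.42 CPM in doxorubicin. The part of these marker differences in the class I results was not tested. Bulk RNA cannot tell fewer expressing cells from less RNA per cell.

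Doxorubicin against DMSO gave a called rise of 1 of the 9 genes, TAP1, by edgeR's quasi-likelihood test at an adjusted p of 0.01 (3 libraries against 2). Of all 14187 genes tested, 4.02% passed in either direction and 1.29% as higher. The fitted log2 fold changes were above 0 for 8 genes and below 0 for TAP2. Their median was 0.60, beside 0.01 over all genes tested. In 5 genes (HLA-B, HLA-C, HLA-E, TAP1 and ERAP1) every doxorubicin library was above both DMSO libraries, as in 24.3% of all genes, and TAP2 was below them in every one, as in 23.4%. DESeq2, the tool the study used, called 3 of the 9 as higher (HLA-B, HLA-C and TAP1), and 6.59% of all genes as higher. The members and the doxorubicin contrast were chosen with earlier results of these data known, so no test over the 9 genes as a group was made.

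**Figure D2:**
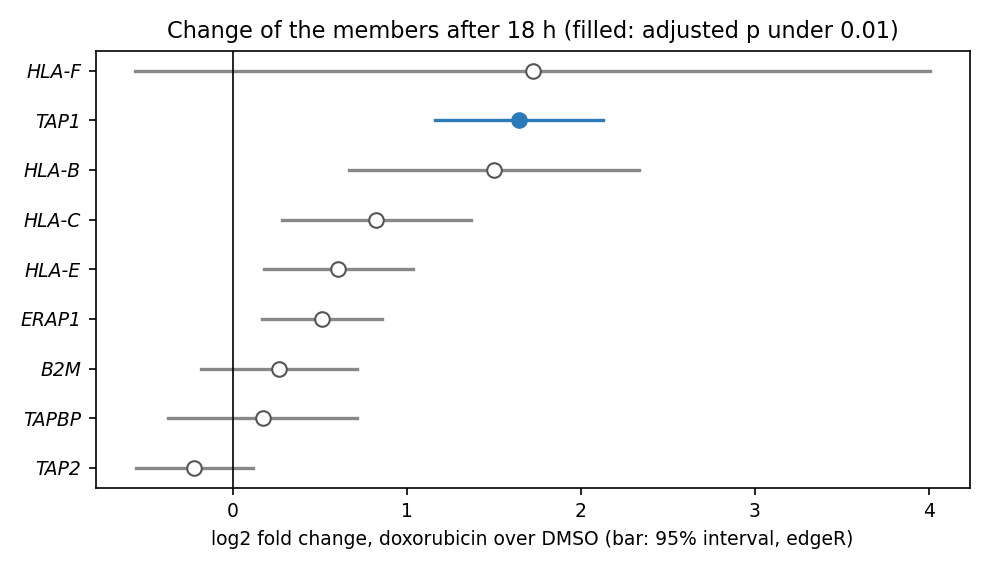
Log2 fold change of each gene, doxorubicin over DMSO (x axis), from the edgeR fit of 3 against 2 libraries, with 95% intervals that are not adjusted for the number of genes. The filled point, TAP1 at 1.65, is the one gene with an adjusted p under 0.01, and the interval of HLA-F, the gene with the fewest counts, is the widest.

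TAP1, 1 chain of the peptide pump, had 433 and 500 counts in the DMSO libraries, 1380 and 1180 at 0.2 μM and 2431 at 0.34 μM. These are 16.5 and 19.6 CPM in DMSO against 53.4, 49.1 and 67.0 CPM in doxorubicin. The groups were far apart, and the replicates within each were close. The mean rose from 18.1 ± 2.17 (SD, n = 2) to 56.5 ± 9.36 CPM (SD, n = 3), a fitted change of 3.13-fold, or 1.65 ± 0.20 on the log2 scale (SE; edgeR adjusted p = 0.00472, DESeq2 adjusted p = 3.51e-11). The edgeR call was lost whichever of the 5 libraries was left out, with log2 fold changes between 1.51 and 1.76 and adjusted p between 0.0131 and 0.0275. Without the 0.34 μM library 178 of 13891 genes passed, against 571 of 14187 in the main fit. The totals over all genes with any other 1 library left out are not given here. Why the call was lost was not tested. TAP1 overlaps the antisense gene PSMB8-AS1, whose reads may share its count, since it is not known here whether the counting used strand.

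TAP2, the other chain of the pump, had 1140 and 1079 counts in DMSO, 935 and 857 at 0.2 μM and 1391 at 0.34 μM. Scaled to depth these were 43.5 and 42.3 CPM against 36.2, 35.6 and 38.3 CPM. The doxorubicin libraries were all slightly below the DMSO libraries, and all 5 lay within a narrow range. The log2 fold change was -0.22 ± 0.14 (SE), with a 95% interval from -0.56 to 0.11 (edgeR adjusted p = 0.333).

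Since both chains make 1 pump, their levels were set side by side per kb of the MANE Select transcript, which is 2685 bases long for TAP1 and 5643 for TAP2. The ratio of TAP1 to TAP2 in CPM per kb was 0.798 and 0.974 in DMSO, and 3.10, 2.89 and 3.67 in doxorubicin. TAP1 was the lower of the pair in both DMSO libraries and the higher in every doxorubicin library. The log2 ratio differed by 1.86 between the groups (exact permutation test, two-sided p = 0.2, n = 2 and 3). That is the smallest p that this test, which doubles the one-sided p, can give for 2 against 3 libraries. The length of the transcripts used in RPE1 cells is not known here, which sets the ratio itself but not its change as long as that length is the same in both groups.

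**Figure D3:**
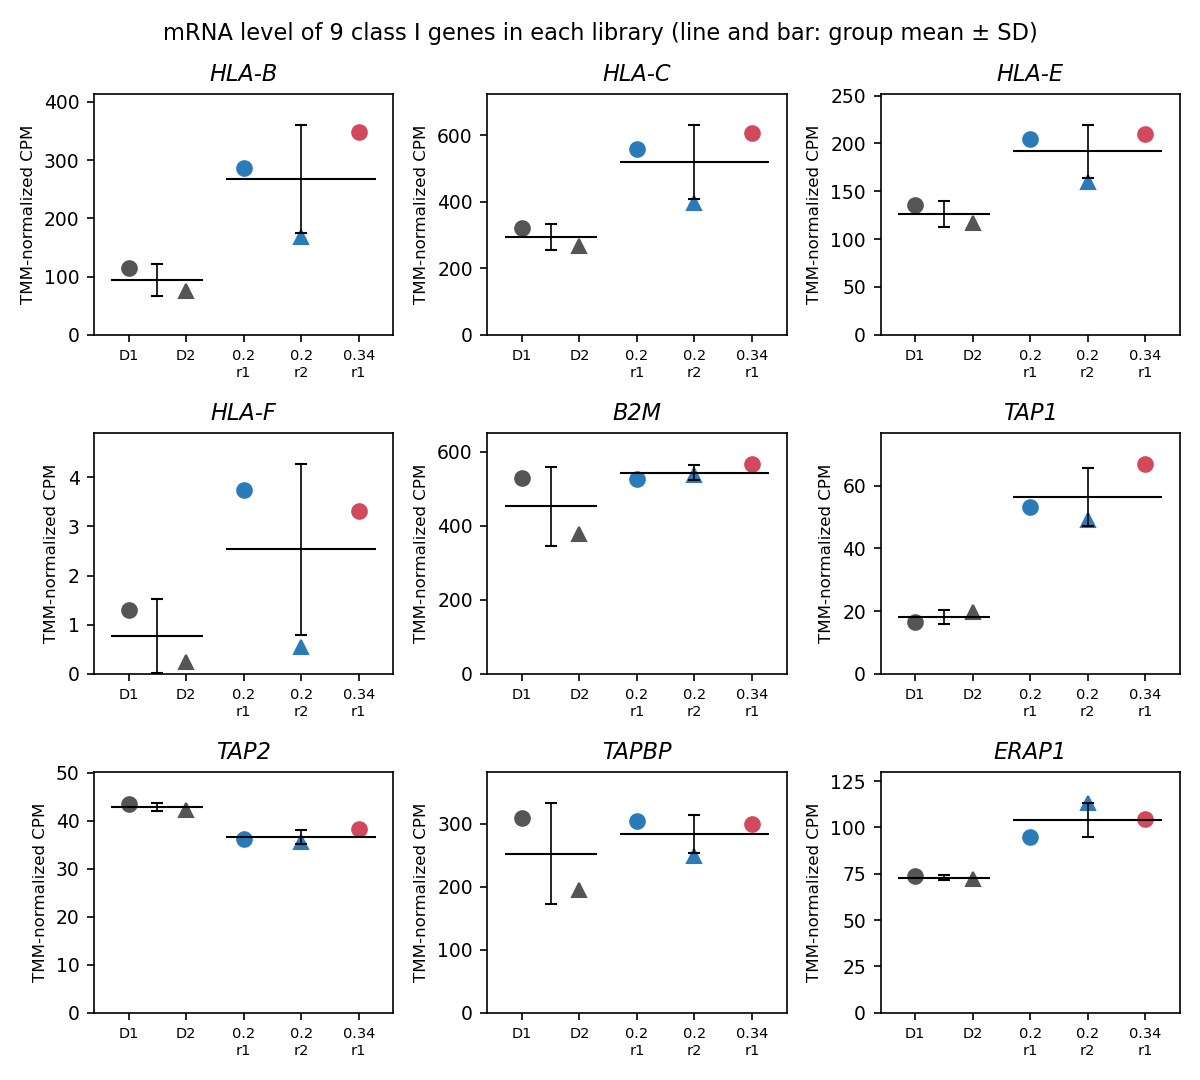
TMM-normalized CPM (y axis, from 0) of each gene in each library, with D1 and D2 for DMSO replicates, 0.2 and 0.34 for the doxorubicin dose in μM and r1 and r2 for replicates. Horizontal lines are group means and bars are SD (n = 2 and 3). TAP1 separates the groups with little spread and HLA-B with a wide spread, in TAP2 the groups lie close together, and in B2M and TAPBP they overlap.

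HLA-B, a classical heavy chain, had 2992 and 1916 counts in DMSO, 7431 and 4025 at 0.2 μM and 12673 at 0.34 μM. In CPM it was at 114 and 75.0 in DMSO and at 287, 167 and 349 in doxorubicin. All doxorubicin libraries lay above both DMSO libraries, but the second replicate was the lower one in both conditions, by 1.52 times in DMSO and by 1.72 times at 0.2 μM. The means were 94.6 ± 27.6 CPM (SD, n = 2) and 268 ± 92.5 CPM (SD, n = 3), and the fitted ratio was 2.83, a log2 fold change of 1.50 ± 0.35 (SE; 95% interval 0.67 to 2.34). It missed the threshold by edgeR (adjusted p = 0.0365) and passed it by DESeq2 (adjusted p = 0.000163).

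HLA-C, the other classical chain among the 9 genes, was measured at 322 and 266 CPM in DMSO and 559, 395 and 606 CPM in doxorubicin, from 6789 to 21979 counts. The groups did not overlap, and again the second replicate was the lower of each pair. The means were 294 ± 39.4 and 520 ± 111 CPM (SD, n = 2 and 3), and the log2 fold change was 0.82 ± 0.23 (SE; edgeR adjusted p = 0.0594, DESeq2 adjusted p = 0.0056). Heavy chain genes share long stretches of sequence and vary between people, so counts of reads mapped to 1 reference can be split between them or lost, and how multi-mapping reads were counted is not known here.

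HLA-E, the ligand of NKG2A, stood at 136 and 116 CPM in DMSO and 205, 160 and 210 CPM in doxorubicin. The order of the libraries was that of HLA-B and HLA-C, with a smaller gap. The means were 126 ± 13.7 and 192 ± 27.5 CPM (SD, n = 2 and 3), with a log2 fold change of 0.60 ± 0.18 (SE), which passed neither by edgeR (adjusted p = 0.0708) nor by DESeq2 (adjusted p = 0.018).

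HLA-F had few reads, 34 and 6 counts in DMSO, 97 and 13 at 0.2 μM and 120 at 0.34 μM. The second replicates were 5.52 times lower than the first in DMSO and 6.94 times lower at 0.2 μM, so that the groups overlapped. The log2 fold change of 1.72 ± 0.96 (SE) had a 95% interval from -0.56 to 4.01 (edgeR adjusted p = 0.277), and it moved to 3.41 without the first DMSO library and to 0.96 without the second, neither of which passed. It was called only with both second replicates left out, in the fit given with the replicate differences. HLA-F also overlaps the antisense gene HLA-F-AS1 and the pseudogene RPL23AP1.

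B2M, the light chain that all 4 heavy chains need, was at 529 and 377 CPM in DMSO and 527, 538 and 567 CPM in doxorubicin. The doxorubicin libraries were close to each other, and the first DMSO library lay among them. The means were 453 ± 107 and 544 ± 21.0 CPM (SD, n = 2 and 3), and the log2 fold change was 0.26 ± 0.19 (SE; 95% interval -0.19 to 0.71; edgeR adjusted p = 0.394). Without the first DMSO library it was 0.52, and without the second 0.02, so its size rests on which DMSO library is kept. Per kb, the ratio of HLA-B to B2M was 0.132 and 0.122 in DMSO and 0.335, 0.191 and 0.378 in doxorubicin. The groups did not overlap (exact permutation test, two-sided p = 0.2, the smallest this test can give). The ratio of HLA-B to HLA-C per kb was 0.356 and 0.283 in DMSO and 0.516, 0.425 and 0.579 in doxorubicin, with the same p, so that the difference on the log2 scale was larger for HLA-B than for HLA-C in these libraries.

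TAPBP, which encodes the chaperone tapasin, was at 309 and 196 CPM in DMSO and 304, 249 and 299 CPM in doxorubicin. All doxorubicin libraries fell between the DMSO libraries. The log2 fold change was 0.17 ± 0.23 (SE; edgeR adjusted p = 0.662), and it became -0.14 without the second DMSO replicate. The gene overlaps RGL2.

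ERAP1, the trimming peptidase, was at 73.8 and 72.1 CPM in DMSO and 94.7, 113 and 104 CPM in doxorubicin. The DMSO libraries were nearly equal and all doxorubicin libraries lay above them, and unlike in HLA-B the second replicate was the higher one at 0.2 μM. The means were 73.0 ± 1.18 and 104 ± 9.20 CPM (SD, n = 2 and 3), a log2 fold change of 0.51 ± 0.14 (SE; edgeR adjusted p = 0.0617, DESeq2 adjusted p = 0.0139). Its annotated span overlaps CAST and ERAP2, so reads of those genes could enter its count.

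The second replicates were lower than the first in 8 of the 9 genes in DMSO, TAP1 being the exception. At 0.2 μM they were lower in 7, B2M and ERAP1 being the exceptions. Other genes separated the replicates in the same way in both conditions. The interferon-γ-induced GTPase GBP2 had 382 and 31 counts in DMSO and 198 and 11 at 0.2 μM, with 224 at 0.34 μM. COL1A1 had 7513 and 1647 counts in DMSO and 4885 and 1028 at 0.2 μM, while the endothelial marker CDH5 had 2 and 56, and 4 and 69. Whether the source of this replicate difference also moved the class I genes was not tested. Compared within replicate numbers, the log2 difference of 0.2 μM from DMSO was 1.33 and 1.16 for HLA-B, 0.80 and 0.57 for HLA-C, 0.59 and 0.46 for HLA-E and 1.69 and 1.32 for TAP1. All of these were above 0, as were those of HLA-F (1.53 and 1.20) and ERAP1 (0.36 and 0.65). TAP2 was below 0 in both, at -0.27 and -0.25. B2M gave -0.01 and 0.51, and TAPBP -0.02 and 0.35. The share of all genes with the same sign in both comparisons is not given here. With both second replicates left out, an alternative chosen after seeing the data, 6 of the 9 genes passed (HLA-B, HLA-C, HLA-E, HLA-F, TAP1 and ERAP1), but so did 21.2% of all genes as higher. In that fit 1 DMSO library stands alone and the spread comes from doxorubicin libraries of different doses.

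**Figure D4:**
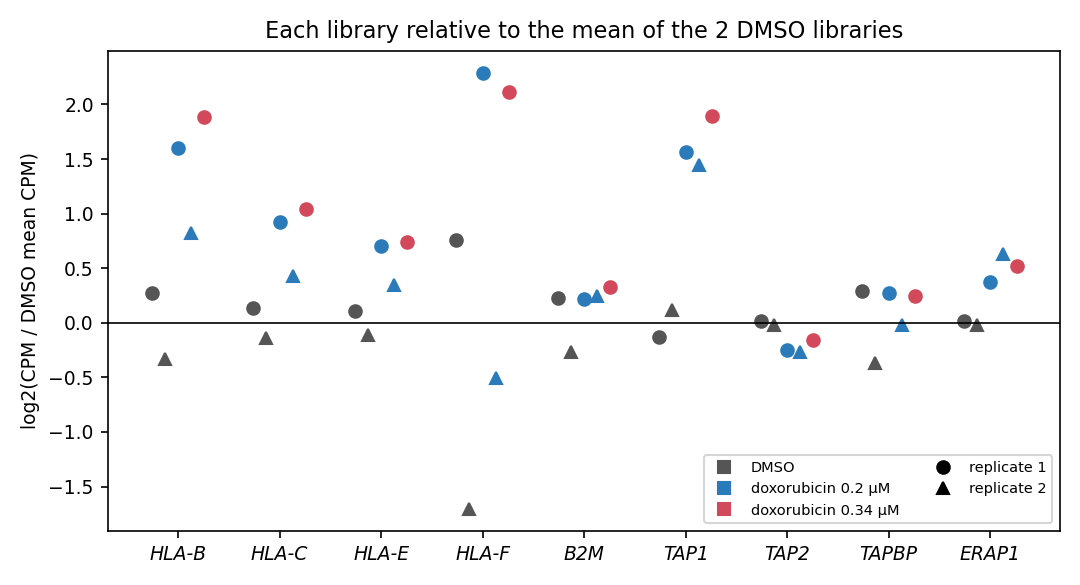
Log2 ratio of each library's CPM to the mean of the 2 DMSO libraries (y axis) for each gene (x axis), coloured by treatment, with circles for replicate 1 and triangles for replicate 2. In HLA-B, HLA-C, HLA-E and HLA-F the triangles lie below the circles of the same colour, while in TAP1 the replicates at 0.2 μM lie close together.

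The 0.34 μM library had the highest CPM of the 3 doxorubicin libraries in 6 of the 9 genes, and the second 0.2 μM replicate had the lowest in 7. The share of all genes with these orders is not given here. The contrast of 0.34 μM (n = 1) with 0.2 μM (n = 2), fitted with DMSO in a model of 3 conditions, called 0 genes by edgeR (0% of those tested, with 22 at an unadjusted p under 0.05 and no member among them), 0 by DESeq2 (26 at an unadjusted p under 0.05) and 0 by limma voom (14). The single library at 0.34 μM is assumed to vary like the others. In CPM, COL1A1 was at 151 there, against 189 and 42.7 in the first and second 0.2 μM replicates. CDH5 was at 0.138 against 0.155 and 2.87, HLA-B at 349 against 287 and 167, and HLA-E at 210 against 205 and 160. Each of these was nearer to the first replicate. TAP1 was at 67.0 against 53.4 and 49.1. The part of the replicate difference in the contrast of doses was not tested, and 1 library at 0.34 μM cannot tell it from dose. The log2 difference between doses was 0.62 for HLA-B (95% interval -0.33 to 1.57), 0.39 for TAP1 (-0.26 to 1.03), 0.34 for HLA-C (-0.42 to 1.11) and 0.20 for HLA-E (-0.46 to 0.87). For TAP2 it was 0.09 (-0.53 to 0.72), and for ERAP1 0.01 (-0.60 to 0.61). Each of these intervals includes 0. Against DMSO alone, TAP1 had a log2 fold change of 1.50 at 0.2 μM (edgeR adjusted p = 0.0181) and 1.89 at 0.34 μM (adjusted p = 0.0169), and neither dose alone passed the threshold.

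Per kb of transcript, B2M was the most abundant of the 9 in both groups, with 481 ± 114 CPM per kb in DMSO (SD, n = 2) and 577 ± 22.2 in doxorubicin (SD, n = 3). HLA-C followed with 191 ± 25.6 and 337 ± 71.7 CPM per kb. In DMSO the order went on with TAPBP (73.2), HLA-B (61.6) and HLA-E (49.5), of which neighbours overlapped between libraries, then ERAP1 (15.1), TAP2 (7.60), TAP1 (6.72) and HLA-F (0.518). In doxorubicin HLA-B (174) stood above TAPBP (82.3) and HLA-E (75.3), which overlapped each other, and TAP1 (21.0) overlapped ERAP1 (21.5) and stood above TAP2 (6.50) and HLA-F (1.71). HLA-B and TAP1 each stood 1 place higher in the order in doxorubicin, HLA-B past TAPBP, with which it overlapped in DMSO, and TAP1 past TAP2.

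Of the genes tested, the 5 whose centred log2 CPM over the 5 libraries was nearest to that of TAP1 were RHBDF2, TBC1D2, ORAI3, ALDH4A1 and CCS. Their root mean square distances from it were between 0.0592 and 0.13 on the log2 scale. The nearest, RHBDF2, had a log2 fold change of 1.58 ± 0.20 (SE; edgeR adjusted p = 0.00529). The measure rests on 5 libraries and on the group difference that all these genes share.

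The other genes of the pathway were read from lists set with earlier results of these data known. Of all genes tested, 30.8% had an unadjusted p under 0.05 by edgeR, which is the background for the counts at that level in each list. Among 10 partners in peptide loading and folding, 1 rose by edgeR. It was MR1, a class I-like molecule that shows vitamin metabolites to MAIT cells, with 19.4 and 16.1 CPM in DMSO and 40.1, 43.4 and 40.3 CPM in doxorubicin. Its log2 fold change was 1.22 ± 0.17 (SE; edgeR adjusted p = 0.00676), and no library of one group overlapped the other. The chaperones CALR (-0.05), CANX (-0.11) and PDIA3 (-0.03) had log2 fold changes near 0 and did not pass. TAPBPL, the tapasin-related peptide editor, was at 0.67 and ERAP2, the second trimming peptidase, at 0.50, and neither passed. The median of the list was 0.12.

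Of 11 proteasome genes, 0 passed by edgeR (1 at an unadjusted p under 0.05) and 0 by limma voom, and DESeq2 called 1, PSMB10. The median of the list was 0.18. The immunoproteasome subunits differed: PSMB10 had a log2 fold change of 1.07 ± 0.23 (SE; edgeR adjusted p = 0.0294), PSMB8 of 0.33 and PSMB9 of -0.21. PSMB9, which faces TAP1 head to head, had 144 and 98 counts in DMSO, 120 and 76 at 0.2 μM and 155 at 0.34 μM. Its libraries overlapped between the groups, where those of TAP1 did not. The proteasome activator subunits PSME1 (0.03) and PSME2 (0.27) did not pass, nor did the constitutive subunit PSMB5 (0.38) or the cytosolic peptidase THOP1 (-0.53).

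Of 16 transcription factors that act on class I genes, 0 passed by edgeR (5 at an unadjusted p under 0.05), 0 by limma voom and 2 by DESeq2. One of these was STAT2, which carries the signal of interferon receptors. STAT2 was at 103 and 90.1 CPM in DMSO and 170, 217 and 194 CPM in doxorubicin, a log2 fold change of 1.01 ± 0.17 (SE; edgeR adjusted p = 0.0127). Every doxorubicin library lay above both DMSO libraries. The coactivator NLRC5 was at 0.32 (edgeR adjusted p = 0.457) and IRF1 at 0.12 (edgeR adjusted p = 0.761), with overlap between groups. NFYB, a subunit of the CCAAT-binding factor, was at -0.55 (edgeR adjusted p = 0.0722). The NF-kB subunit genes RELA and NFKB1 were at -0.06 and -0.01. The median of the list was 0.10.

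Interferon genes IFNB1, IFNG and IFNL1 had 0 counts in every library, which allows up to 3 counts in each. Of 7 receptor and kinase genes tested, 0 passed by edgeR (1 at an unadjusted p under 0.05), 0 by limma voom and 0 by DESeq2, and JAK2 (-0.71, edgeR adjusted p = 0.0662), IFNGR1 (0.29) and IFNGR2 (-0.18) were those farthest from 0. Interferon-stimulated genes went in both directions. Of 12 tested, 0 passed by edgeR (4 at an unadjusted p under 0.05), 0 by limma voom and 2 by DESeq2. Of these 12, 5 had a log2 fold change above 0 and 7 below, and the median was -0.20. ISG15, a ubiquitin-like modifier, had 1.83 ± 0.36 (SE; edgeR adjusted p = 0.022), with 70 and 71 counts in DMSO, 252 and 150 at 0.2 μM and 477 at 0.34 μM. IFI6 had 1.32 ± 0.23 (SE; edgeR adjusted p = 0.0143). The groups did not overlap in either gene. GBP2, described above for its replicates, was at -0.72 ± 1.16 (SE), and CXCL10 had 0 counts in every library.

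Among class I-like molecules and stress ligands of the NKG2D receptor, 9 of 13 had enough reads to test. Of these, 0 passed by edgeR (3 at an unadjusted p under 0.05) and 0 by limma voom, while DESeq2 called PROCR. PROCR, the endothelial protein C receptor, had a log2 fold change of 1.26 ± 0.20 (SE; edgeR adjusted p = 0.011). FCGRT, the neonatal Fc receptor that also pairs with B2M, was at 1.21 ± 0.52 (SE) with overlapping groups. The NKG2D ligands ULBP2 (1.14), MICA (0.42) and MICB (-0.34) did not pass. Of 8 genes of class I turnover, 1 rose by edgeR, SUSD6, described as part of a complex that sends class I molecules to lysosomes. SUSD6 was at 17.6 and 12.6 CPM in DMSO and 42.7, 41.3 and 54.2 CPM in doxorubicin, a log2 fold change of 1.61 ± 0.23 (SE; edgeR adjusted p = 0.00754). Its partner TMEM127 was at 0.38. UBE2J1, a ubiquitin-conjugating enzyme of the endoplasmic reticulum, was at -0.57 ± 0.14 (SE; edgeR adjusted p = 0.0414) and was called as lower by DESeq2, as were 8.02% of all genes. Of 8 MHC class II genes, 6 had too few reads to test, and of the other 2, 0 passed by edgeR (0 at an unadjusted p under 0.05), DESeq2 or limma voom. In all, of 75 list genes tested, 2 (2.67%) passed by edgeR, beside 4.02% of all genes, and 9 (12%) by DESeq2, beside 14.6% of all genes in either direction. At an unadjusted p under 0.05 there were 18 (24%). The lists thus held no larger share of called genes than the whole table. With any 1 library left out 0 passed by edgeR.

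**Figure D5:**
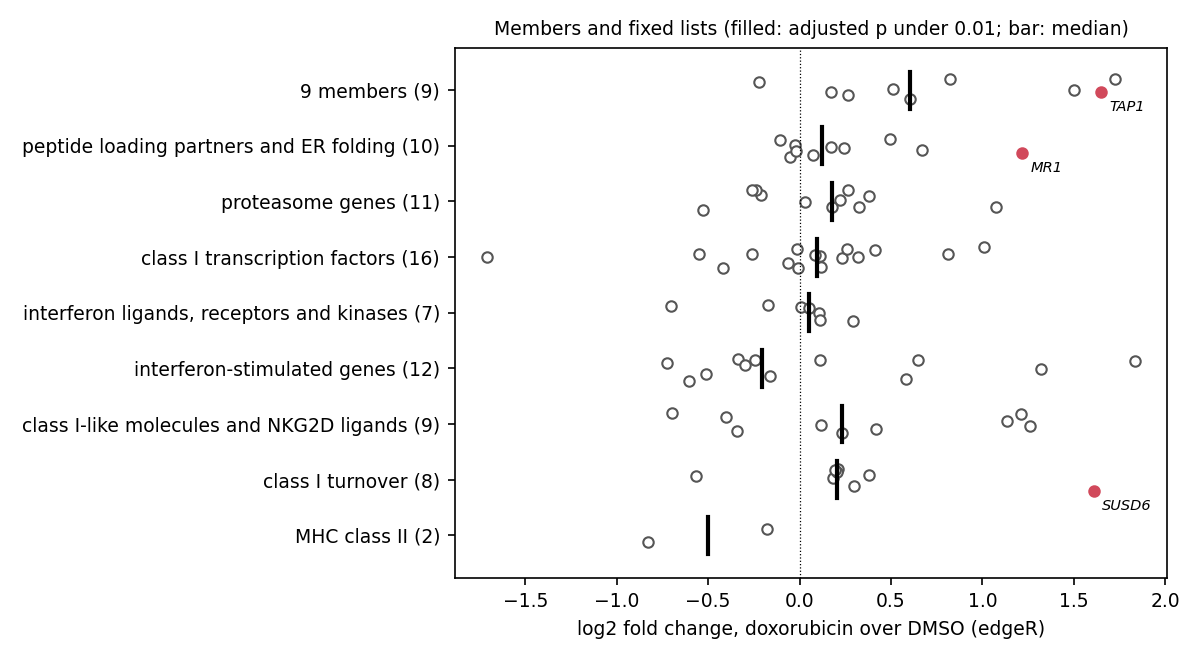
Log2 fold change, doxorubicin over DMSO (x axis, edgeR), of the 9 genes and of each list, 1 point per gene tested, with black bars at the medians and filled points for an adjusted p under 0.01. The filled points are TAP1, MR1 and SUSD6. The median of the 9 genes is 0.60, and those of the lists lie between -0.50 and 0.23.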

How the data were processed

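Poly-A RNA of 5 cultures of RPE1 cells was sequenced with paired ends. Per the methods, the authors aligned reads with STAR (hg38), assigned them to genes of the iGenomes annotation with featureCounts from Rsubread, and deposited the raw counts. No source used here gives tool versions, whether strand was used, or how multi-mapping reads were handled. A table that the authors deposited of their own DESeq2 comparison (fold changes and p-values of genes past their threshold) was not used.

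The counts were analysed in R 4.3.3. The main test was edgeR 4.0.16's quasi-likelihood test over all genes, 3 doxorubicin against 2 DMSO libraries, without covariates, with TMM normalization, a filter for low counts (minimum count 10, minimum total 15) and a Benjamini-Hochberg adjusted p of 0.01 as threshold. DESeq2 1.42.0 and limma 3.58.1 (voom) were alternatives. SEs were obtained from the log2 fold change and its F statistic. CPM are relative to the counts on tested genes after TMM. The scripts were tested on simulated data. P-values measure the spread between cultures of 1 cell line. Lengths are those of MANE Select transcripts in GENCODE 44, and positions and promoters are from RefSeq (GRCh38.p14), where all 9 symbols matched.

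The members and the lists were chosen with earlier results of these data known. Named are all 9 members and, of each list, the genes past the threshold, the 3 farthest from 0 in log2 fold change (where mean log2 CPM was 1 or more), and fixed examples. RELA, NFKB1, CXCL10, the interferon genes and the genes that separate the replicates were named after their values were seen. Replicate 1 is the library whose label gives no number. Some genes of the lists are counted with them but not reported here by name.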

Additional observations from a re-analysis of the deposited data

How the results depend on the processing

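Of the 14 alternatives run for each gene, none reversed the direction of 8 of the 9 genes. TAPBP, which was not called, turned to -0.14 without the second DMSO replicate (from -0.14 to 0.53 over the libraries left out) and to -0.041 with both second replicates left out. The count of class I genes past the threshold was 1 by edgeR, beside 4.02% of all genes, and 3 by DESeq2, beside 14.6%. It was 2 at an adjusted p of 0.05 (HLA-B and TAP1), and 0 at 0.2 μM alone and without any 1 doxorubicin library. Without the 0.34 μM library, 178 of 13891 genes passed. The shares of all genes at the other of these settings are not given here. Among the lists, 2 genes passed, 9 by DESeq2, 33 without both second replicates and 0 without any 1 library (0 to 0). In the fit without both second replicates, 21.2% of all genes passed as higher. Its share of all genes in either direction is not given here. With 1 DMSO library alone in that fit, the 33 is not a result about the lists in particular. A replicate block over the 4 libraries with both numbers called 2 of the 9 genes (HLA-B and TAP1) and 1249 of 13891 genes, beside 178 genes and none of the 9 in the same libraries without it. The difference of replicate 1 from replicate 2 correlated between DMSO and 0.2 μM over 14187 genes (r = 0.528), but with 2 pairs the numbers are not shown to mark a shared batch. The cause of these changes was not tested. HLA-F had the fewest counts of the 9 genes, 6 to 120 per library.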
